A study of Mus musculus with 11 samples.

Results

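The zinc finger genes described here are the mouse genes named Zfp plus a number that were expressed with a mean CPM (a gene's counts scaled to the total of its library) of at least 10, over 11 clonal embryonic stem (ES) cell lines. Of 22369 protein-coding genes counted, 380 carried such a name. Of these, 237 genes passed, 141 were under the level, and Zfp42, Zfp57 and Zfp352 were left out by name. The genes were selected by this level and by name, so their being expressed is no result. The rule uses no value of the spread between clones or of the likeness of neighbours, but the set was chosen with earlier results of these data known. Just inside the limit stood Zfp790 at 10.1 CPM, Zfp324 at 10.5 CPM and Zfp362 at 10.6 CPM. Just outside stood Zfp11 at 9.77 CPM, Zfp566 at 9.44 CPM and Zfp691 at 9.40 CPM. Of the 3 genes left out by name, Zfp42 averaged 975 CPM and Zfp57 535 CPM, while Zfp352, at 1.02 CPM, was also under the limit.

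All 11 lines, numbered 16 to 26, form 1 group with no treatment and 1 RNA library each. They descend from EBRTcH3 mouse ES cells, in which the ROSA26 promoter drives a tetracycline-controlled transactivator. Each holds several barcoded reporters, driven by the PGK promoter of the mouse and placed at random by piggyBac, and was grown from a single colony of cells sorted for high eGFP. The cells grew with leukaemia inhibitory factor, the MEK inhibitor PD0325901 and the GSK-3 inhibitor CHIR99021 in 60% BRL-conditioned medium. With 1 library per line, the biology of a clone and the making of its library cannot be told apart, and a difference in the amount of RNA per cell cannot be told apart from a difference in the mix of cells.

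Most proteins of this name carry C2H2 zinc fingers, short loops in which 2 cysteines and 2 histidines hold a zinc ion and side chains of the loop read DNA bases. Many also carry a KRAB domain, which recruits the co-repressor Trim28 (KAP1) and with it histone H3 lysine 9 methylation. In ES cells, KRAB zinc finger proteins are known for silencing retroelements and for keeping imprints. Such genes multiply by local duplication, so that near copies lie side by side in clusters. Other genes share only the name: the tristetraprolin family (Zfp36, Zfp36l1, Zfp36l2) has CCCH fingers that bind AU-rich RNA.

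The stretch just before a gene's start is shown for the chromosome 4 cluster, whose genes moved together, and for Zfp36l1 and Zfp423, the genes with the lowest adjusted p for variability. Sequences are from RefSeq on GRCm38.p6, 200 bases before the start, written 5′ to 3′ on the gene's strand. Capitals mark the CCAAT box, the GC box (GGGCGG) or the TATA box (TATAAA) on either strand, and overlapping matches run together. The first 4 sequences are examples from the cluster in which an inverted CCAAT box runs into a GC box, within like surroundings.
Zfp980 (chr4:145670497-145670696, plus strand): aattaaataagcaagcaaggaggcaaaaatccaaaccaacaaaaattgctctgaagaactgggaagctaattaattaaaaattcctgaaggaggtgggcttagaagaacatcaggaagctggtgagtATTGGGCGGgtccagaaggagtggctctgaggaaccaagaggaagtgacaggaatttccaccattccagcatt
Zfp600 (chr4:146156627-146156826, plus strand): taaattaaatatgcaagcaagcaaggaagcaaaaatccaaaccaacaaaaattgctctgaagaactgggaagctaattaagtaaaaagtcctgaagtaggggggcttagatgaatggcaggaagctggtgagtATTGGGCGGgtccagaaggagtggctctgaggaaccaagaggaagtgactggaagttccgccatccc
Zfp981 (chr4:146514720-146514919, plus strand): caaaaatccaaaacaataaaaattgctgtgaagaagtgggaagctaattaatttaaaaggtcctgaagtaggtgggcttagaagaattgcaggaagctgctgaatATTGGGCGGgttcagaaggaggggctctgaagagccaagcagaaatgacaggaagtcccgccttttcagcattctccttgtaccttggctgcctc
Zfp985 (chr4:147553077-147553276, plus strand): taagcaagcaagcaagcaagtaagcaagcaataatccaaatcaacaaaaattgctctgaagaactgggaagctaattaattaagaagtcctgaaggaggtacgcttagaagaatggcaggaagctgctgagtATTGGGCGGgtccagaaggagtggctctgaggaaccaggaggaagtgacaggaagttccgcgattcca
Zfp982, of the same cluster, has a GC box in unlike surroundings and 11 CG pairs, against 1 to 4 CG pairs in the 4 sequences above.
Zfp982 (chr4:147442914-147443113, plus strand): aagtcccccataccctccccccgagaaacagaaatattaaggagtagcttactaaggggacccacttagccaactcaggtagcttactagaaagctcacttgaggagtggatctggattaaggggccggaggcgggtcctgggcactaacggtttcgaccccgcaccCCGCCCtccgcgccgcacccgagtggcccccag
The 2 variable genes from other chromosomes are next.
Zfp36l1 (chr12:80113014-80113213, minus strand): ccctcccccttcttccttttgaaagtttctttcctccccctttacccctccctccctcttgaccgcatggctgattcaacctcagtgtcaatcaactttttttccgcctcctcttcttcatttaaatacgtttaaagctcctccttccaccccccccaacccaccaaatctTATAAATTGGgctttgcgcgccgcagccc
Zfp423 (chr8:87959596-87959795, minus strand): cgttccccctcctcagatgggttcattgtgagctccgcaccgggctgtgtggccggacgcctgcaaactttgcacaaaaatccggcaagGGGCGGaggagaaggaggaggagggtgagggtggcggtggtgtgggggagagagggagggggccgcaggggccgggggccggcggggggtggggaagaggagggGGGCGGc

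The overlap of the inverted CCAAT box with the GC box was noticed in these sequences. Counted was ATTGGGCGGG on either strand, which is that overlap and the G that follows it in Zfp980. The last G belongs to neither box and was copied from a cluster gene. The overlap followed by another base was not counted, so the shares given here are not those of the overlap itself. The counted stretch stood in 7 of 11 promoters of the chromosome 4 cluster that matched the RefSeq table (Zfp979, Zfp980, Zfp981, Zfp984, Zfp985, Zfp988 and Zfp600). It stood in 1 of the 183 other matched zinc finger genes and in 16 of 7320 genes at 10 CPM or more (0.219%). Over all 27025 promoters of the table, 0.111% held it. Pairs of promoters within the cluster shared an unbroken run of 7 to 83 bases, median 20, in 55 pairs. Pairs of the 40 other zinc finger genes with the highest mean CPM, taken on different chromosomes, shared 6 to 15 bases, median 8, in 731 pairs. A match of letters is a description of the sequence and was not tested for binding.

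Over the 194 zinc finger genes with a promoter in the table, CCAAT on either strand stood in 47.9%, against 34.0% of genes at 10 CPM or more and 30.0% of all promoters. GGGCGG stood in 42.8% of them, against 61.1% of genes at 10 CPM or more and 31.3% of all promoters. TATAAA stood in 4.64% of them, against 3.69% and 10.6% in the same 2 sets. The cyclic AMP response element TGACGTCA stood in 3.09% of them, against 2.99% and 1.55%. The median number of CG pairs was 9 for the zinc finger genes, 15 for genes at 10 CPM or more and 5 for all promoters. In the chromosome 4 cluster it was 2.

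Depth ran between 10846005 and 16868500 counts per library, median 14378599, and the zinc finger genes took 1.36% to 1.46% of them. A count of 3 reads corresponds to 0.178 to 0.277 CPM in these libraries, and no count was raised to it. The limit of 10 CPM by itself puts the mean of every zinc finger gene above that. The ES cell markers Pou5f1, Nanog, Sox2, Esrrb, Tfcp2l1 and Klf4 summed to 5345 to 6958 CPM. Summed levels were 9.45 to 25.8 CPM for 6 fibroblast markers, 63.5 to 128 CPM for 6 trophoblast markers and 51.5 to 124 CPM for 5 neural markers. The 6 primitive endoderm markers summed to 134 to 327 CPM, nearly all of it Lama1 (128 to 323 CPM). No marker was at 0 in all clones. Those with the highest mean in the other 3 lists were Tubb3 (49.6 CPM) and Nes (25.8 CPM) of the neural list, Tfap2c (48.2 CPM), Krt8 (19.2 CPM) and Eomes (10.2 CPM) of the trophoblast list and Pdgfrb (11.0 CPM) of the fibroblast list. The lowest were Neurog2, Postn, Col3a1, Cdx2, Col1a2, Elf5, Sox17 and Gata6, at a mean of at most 0.438 CPM.

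The 237 genes lay on 20 chromosomes. Chromosome 7 held 57 of them, chromosomes 4 and 17 held 22 each and chromosome 13 held 18. Translating the longest open reading frame of their GENCODE transcripts gave a median of 10 C2H2 fingers over 235 genes, with 0 to 33 per protein and the most in Zfp462. A KRAB-like core was found in 115 of the 235, and CCCH fingers in 3. The 11 proteins without a C2H2 match include the 3 tristetraprolin relatives, Zfp704 and Zfp395.

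Levels between genes are compared per kilobase of exon, since longer transcripts give more reads. The median was 6.58 CPM per kilobase over the 237 genes and 27.6 CPM per kilobase over the 16 genes of the chromosome 4 cluster. Zfp990, a KRAB gene of that cluster, led with 77.5 CPM per kilobase. Zfp568, a KRAB protein that represses a placental Igf2 transcript, followed with 76.6 CPM per kilobase. Zfp428 (54.9), Zfp106 (54.0), Zfp655 (53.7), Zfp706 (45.0), Zfp207 (44.9), Zfp518b (44.0), Zfp980 (42.7) and Zfp281 (42.6) completed the highest 10 on the same scale.

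Within a gene, the highest clone stood at a median of 1.59 times the lowest over the zinc finger genes, and at 1.63 times over the other genes at 10 CPM or more. Zfp568 had a lowest value of 479 CPM, a median of 560 CPM and a highest value of 627 CPM (mean 564 ± 43.9, SD, n = 11). Zfp106, an RNA-binding protein, had 406 CPM in clone 18, a median of 568 CPM and 684 CPM in clone 17 (563 ± 74.4, SD, n = 11). For Zfp106 clone 18 stood below the rest, of which the lowest was clone 22 at 521 CPM. Zfp207, which binds Bub3 at kinetochores, had 253 CPM at the lowest, 300.0 CPM at the median and 364 CPM at the highest. Zfp292 spanned 230 to 303 CPM, Zfp655 249.99 to 356 CPM, Zfp710 184 to 275 CPM and Zfp518b 216 to 383 CPM.

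The flattest of all was Zfp507, at 73.2 CPM in clone 16, 80.7 CPM at the median and 85.8 CPM in clone 17. The standard deviation (SD) of its log2(CPM + 1) was 0.071. Zfp59 (0.071), Zfp410 (0.074), Zfp830 (0.077) and Zfp62 (0.081) had the next lowest SD on that scale. Zfp410 is known for activating the gene of the chromatin remodeller Chd4. Its own levels lay between 35.5 and 42.5 CPM, and Chd4 lay between 544 and 781 CPM.

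The median SD over clones was 0.197 for the zinc finger genes and 0.204 for the 8940 other genes at 10 CPM or more, on the log2(CPM + 1) scale. The order of the 2 sets differed by level. Between 10 and 20 CPM the median SD was 0.221 over 73 zinc finger genes and 0.278 over 1548 other genes. Between 20 and 50 CPM it was 0.177 over 82 zinc finger genes and 0.215 over 2792 other genes. Between 50 and 100 CPM it was 0.182 over 45 zinc finger genes and 0.183 over 2050 other genes. At 100 CPM or more it was 0.215 over 37 zinc finger genes and 0.180 over 2550 other genes. The last of these holds Zfp990, Zfp980, Zfp992, Zfp979, Zfp981 and Zfp985 of the chromosome 4 cluster.

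**Figure D1:**
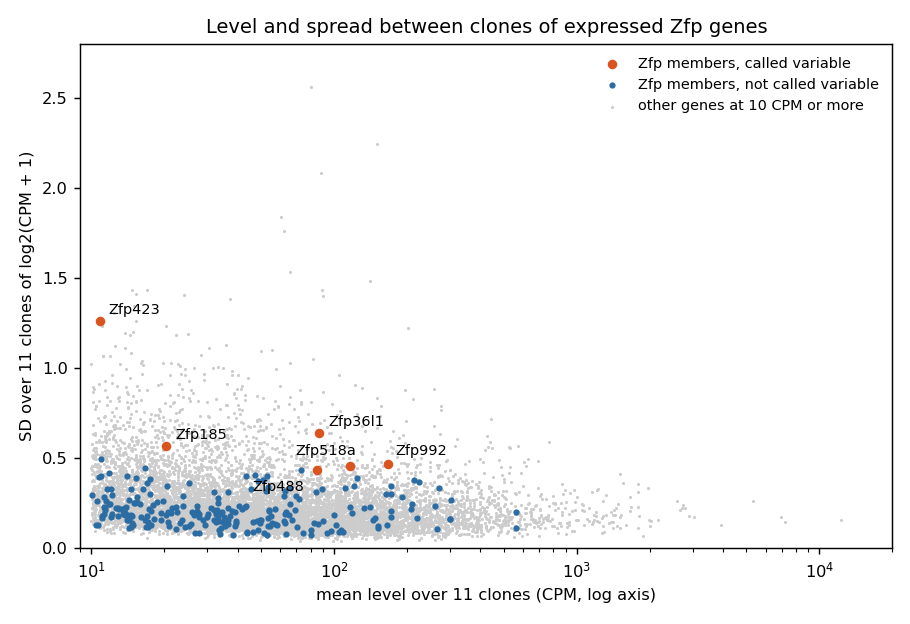
Mean level in CPM (log axis) against the SD over 11 clones of log2(CPM + 1), 1 point per gene at 10 CPM or more. Orange points are the 6 zinc finger genes called variable, blue points the other zinc finger genes and grey points all other genes; Zfp423 lies highest among the zinc finger genes, at an SD of 1.26.

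Whether a gene spread more than genes of its level was tested with an edgeR negative binomial goodness-of-fit test over the 12485 genes that averaged 1 CPM or more, called at a Benjamini-Hochberg adjusted p under 0.05. Of the 237 zinc finger genes, 6 were called variable (2.53%), against a background of 7.47% of all genes tested and 7.55% of the 9177 genes at 10 CPM or more. At an unadjusted p under 0.05 there were 15 of the 237, against 12.9% of all genes tested and of those at 10 CPM or more (1181 of 9177). The 6 were Zfp423, Zfp36l1, Zfp518a, Zfp992, Zfp488 and Zfp185. By structure, 1 of 115 genes with a KRAB-like core was called, and that gene, Zfp992, lies in the chromosome 4 cluster. Of the 100 KRAB genes elsewhere 0 were called by edgeR, with 1 at an unadjusted p under 0.05. Of 120 genes without the core, 5 were called. Among related families at 10 CPM or more, 0 of 33 Zbtb genes and 0 of 14 Zscan and Zkscan genes were called by the same edgeR test, with 1 and 0 at an unadjusted p under 0.05, and 1 of 13 Klf genes was called. Of the markers, 0 of 6 for ES cells, 1 of 3 tested for fibroblasts, 1 of 4 for trophoblast, 1 of 4 for primitive endoderm and 3 of 4 for neural cells were variable by edgeR, against the 7.47% of all genes. At an unadjusted p under 0.05 these counts were 2, 2, 3, 1 and 3.

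Zfp423 is a large multi-finger protein that takes part in BMP signalling and in making fat cell precursors. It had 0.874 CPM in clone 17, 1.79 CPM in clone 19, 3.03 CPM in clone 16 and 4.83 CPM in clone 26. The other clones had 8.38 CPM (18), 9.47 CPM (25), 10.1 CPM (23), 16.3 CPM (21), 16.8 CPM (20), 21.1 CPM (24) and 26.1 CPM (22). The levels ran without a gap across a 29.9-fold range, and clones 16, 17, 19 and 26 were lowest. The adjusted p was 1.05e-11 and stayed between 2.93e-15 and 2.65e-08 under every alternative tried. The nearest 50 non-member genes of Zfp423 on chromosome 8 deviated by 0.47 (log2) in clone 22, the highest clone, and by at most 0.073 in size elsewhere. In clone 22 the neural markers also summed highest, at 124 CPM against 51.5 to 96.7 CPM in the other clones. The 2 leading genes of that list did not peak together. Tubb3 was highest in clone 22 (89.6 CPM), but Nes was highest (75.9 CPM) in clone 19, where Zfp423 was second lowest. The primitive endoderm markers, nearly all Lama1, summed highest in the 4 clones where Zfp423 was lowest (327 CPM in clone 17, 276 CPM in clone 26, 242 CPM in clone 19 and 237 CPM in clone 16), against 134 to 209 CPM in the others. The part of either list in the result was not tested.

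Zfp36l1 is an RNA-binding protein that speeds the decay of messages with AU-rich elements. It had 26.04 CPM in clone 19, 54.0 CPM in clone 17, 64.5 CPM in clone 26 and 76.3 CPM in clone 22. It had 84.6 CPM in clone 24, 95.6 CPM in clone 25, 100.1 CPM in clone 23 and 100.2 CPM in clone 18. The 3 highest values were 114 CPM in clone 20, 119 CPM in clone 21 and 120 CPM in clone 16. Clone 19 stood at less than any other, and clones 17 and 26 were next. Clone 19 also had the highest summed trophoblast markers (128 CPM, against 63.5 to 98.4 CPM in the others). Its summed fibroblast markers were highest too (25.8 CPM, against 9.45 to 22.6 CPM). Clones 17 and 26 had the highest summed primitive endoderm markers (327 and 276 CPM), a sum that is nearly all Lama1. That sum was alike in clone 16, the highest for Zfp36l1 (237 CPM), and in clone 19, the lowest for it (242 CPM). The part of these lists in the result was not tested. The adjusted p was 5.49e-06, and 0.0979 without clone 19. Its relatives Zfp36 (8.48, 14.4 and 19.6 CPM at the lowest, median and highest) and Zfp36l2 (43.7, 65.0 and 80.6 CPM) had an adjusted p of 1. The neighbours of Zfp36l1 on chromosome 12 deviated by between -0.065 and 0.068 (log2) in all clones.

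Zfp518a, a multi-finger protein, had 231 CPM in clone 26, against 74.1 to 134 CPM in the other clones with a median of 105 CPM over all 11. The high value in clone 26 carries the call, since the adjusted p was 0.00127 with that clone and 0.843 without it. Its neighbours on chromosome 19 deviated by 0.44 (log2) in clone 17, where Zfp518a was not at its highest, and by 0.00079 in clone 26.

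Zfp992, a KRAB gene of the chromosome 4 cluster, had 72.2 CPM in clone 19 and 109 CPM in clone 16, against a median of 175 CPM over all clones and 226 CPM in clone 23. Clone 19 was the lowest, and the adjusted p of 0.00585 became 0.617 without it. Zfp488, known as a factor of oligodendrocytes, had 52.3 CPM in clone 24, a median of 86.8 CPM and 137 CPM in clone 26. Its adjusted p was 0.0203, and 0.0945, 0.0952 and 0.246 without clones 18, 24 and 26. Of its 40-base exon windows 16.1% occur in another gene as well, so reads may be shared.

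Zfp185, an X-linked protein of the actin cytoskeleton with no C2H2 match, had 7.14 CPM in clone 26, a median of 17.9 CPM, and 32.2 and 32.6 CPM in clones 22 and 21. Its adjusted p was 0.0495, just under the threshold, and 0.0527 with no gene filter. It exceeded 0.05 when clone 18 (0.0678), 20 (0.0502), 21 (0.199), 22 (0.158), 23 (0.0576) or 26 (0.834) was left out. Just outside the call were Zfp706 (adjusted p 0.0508, with 383 CPM in clone 19 and 159 to 284 CPM in the others), Zfp600 (0.0764) and Zfp516 (0.0806).

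**Figure D2:**
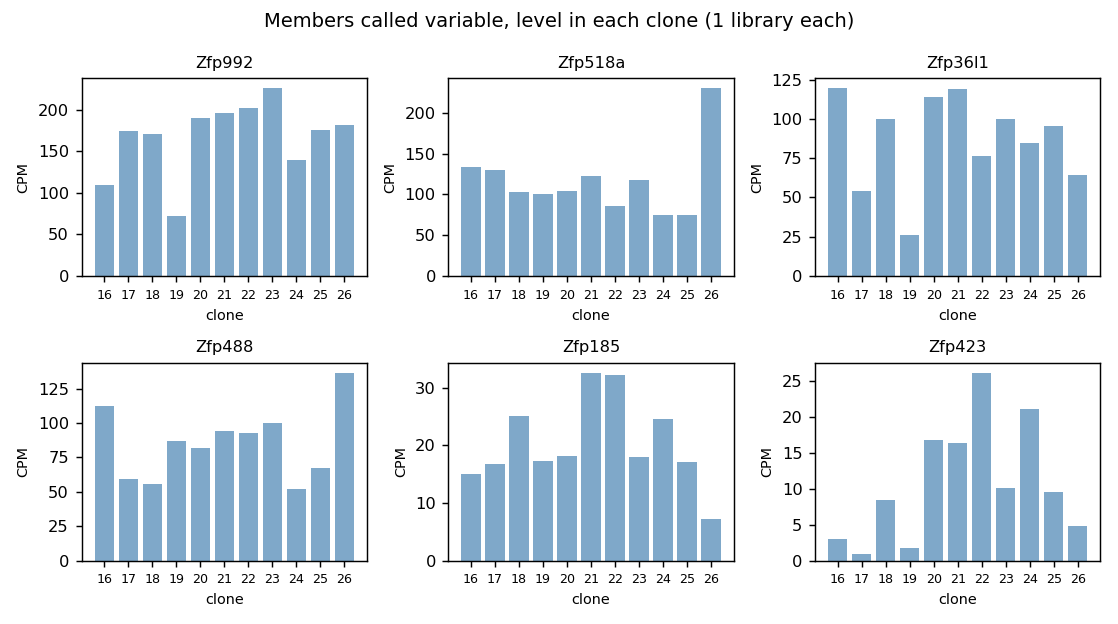
Level in CPM (vertical axis from 0) of the 6 zinc finger genes called variable, 1 bar per clone and 1 library per bar. Zfp992 and Zfp36l1 are lowest in clone 19, Zfp518a and Zfp488 are highest in clone 26, and Zfp423 spans 0.874 CPM (clone 17) to 26.1 CPM (clone 22).

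Each clone was then set against the other 10 with the edgeR quasi-likelihood test, adjusted over 137335 pairs of gene and clone. Over all genes 293 pairs were called (0.213%), 0.105% higher and 0.108% lower. Of the zinc finger genes, 7 had a call, 2 higher and 5 lower, which is 0.269% of their 2607 pairs. With the DESeq2 Wald test 28 of the 2607 were called (1.07%), against 1.05% of all pairs. The 5 lower calls were all in clone 19 and in the chromosome 4 cluster; in clone 19, 0.673% of all genes tested were called lower. The 2 higher calls were in clones 16 and 22, where 0.208% and 0.144% of all genes tested were called higher. The count for the zinc finger genes was 2 without clone 19, which itself held 5 of the 7 calls. It was 10 without clone 16, 7 without clone 17, 3 without clone 18, 21, 22 or 25, 2 without clone 20, 4 without clone 23 or 24 and 6 without clone 26.

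Zfp704 is a relative of Zfp395 without a C2H2 match. It had 399 CPM in clone 16, against 223, 246 and 284 CPM at the lowest, median and highest of the other 10 (mean 247 ± 19.2, SD, n = 10). The log2 fold change was 0.69 ± 0.12 (SE; edgeR adjusted p = 0.0473), and the nearest non-member genes on chromosome 3 deviated by 0.42 in the same clone. The adjusted p lay between 0.0509 and 0.0823 when clone 17, 18, 19, 20, 21, 22, 24, 25 or 26 was left out. Zfp330, a nucleolar protein, had 92.3 CPM in clone 22, against 56.6, 60.0 and 62.6 CPM at the lowest, median and highest of the other 10. Its log2 fold change was 0.62 ± 0.10 (SE; edgeR adjusted p = 0.0260), and its neighbours on chromosome 8 deviated by 0.45. Without clone 18, 20, 21 or 23 its adjusted p was 0.0552, 0.0584, 0.0514 or 0.0619.

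The summed level of the 237 genes lay between 13168 CPM (clone 19) and 14624 CPM (clone 23). Single genes reached their lowest value most often in clone 19 (39 genes) and clone 17 (35 genes), and their highest most often in clone 25 (38 genes) and clone 16 (35 genes). Of the 39 in clone 19, 15 belong to the chromosome 4 cluster. The same shares over all genes were not taken, so these counts do not set the zinc finger genes apart. The median log2 fold change over the genes was between -0.058 in clone 17 and 0.080 in clone 25, and over all genes tested between -0.035 and -0.011.

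Co-variation was examined among neighbours. A cluster is a run of these genes with at most 10 other genes of the table between one and the next, in GENCODE order. There were 36 clusters of at least 2 genes with 149 genes in all, 20 of them with at least 3 genes (117 genes), and 88 genes lay outside any cluster. The likeness of 2 genes is Pearson's r of log2(CPM + 1) over the 11 clones. The 113 pairs of successive genes had a median r of 0.27, with quartiles of 0.022 and 0.60. For 8717 successive pairs of other genes at 10 CPM or more the median was 0.21. For 25223 pairs of zinc finger genes on different chromosomes it was 0.018. The 54 pairs with no other gene between them had a median r of 0.48, against 0.25 for 4794 such pairs of other genes. With 1 to 3 genes between, the medians were 0.20 (36 pairs) and 0.18 (3254 pairs). The 54 pairs include pairs of the chromosome 4 cluster, such as Zfp600 and Zfp992 (r = 0.97) and Zfp979 and Zfp534 (r = 0.94). Their median without that cluster was not taken, so 0.48 does not describe adjacent zinc finger genes elsewhere. These are descriptions, and pairs share clones, libraries and depth.

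Without the chromosome 4 cluster, the median r over the 98 remaining pairs was 0.21. Of these pairs 14.3% had an r over 0.6 and 72.4% an r over 0, against 19.4% and 66.2% of the pairs of other neighbouring genes. After the median deviation of the 50 nearest non-member genes was subtracted, the median over all 113 pairs was 0.22.

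**Figure D3:**
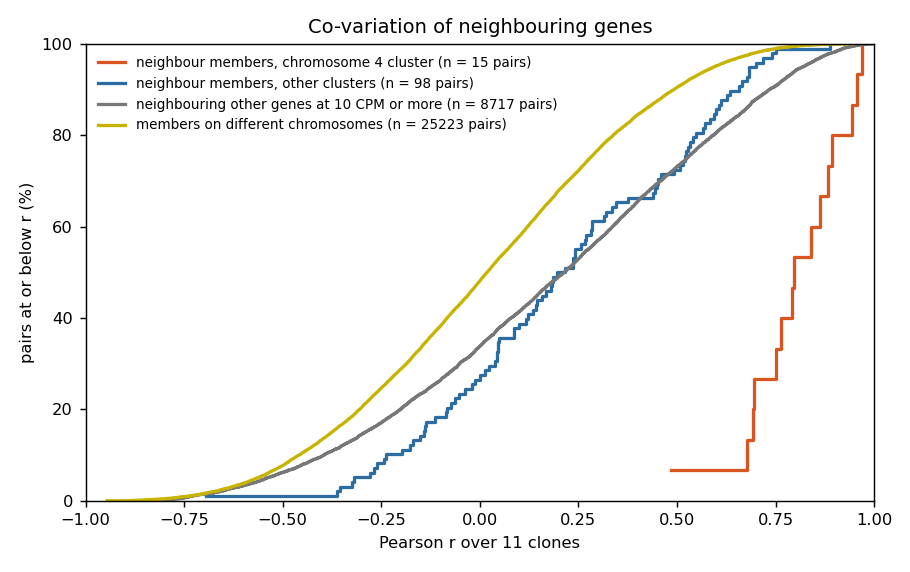
Share of pairs (%, vertical axis) at or below each Pearson r over 11 clones (horizontal axis), for successive zinc finger genes in the chromosome 4 cluster, in other clusters, for neighbouring other genes at 10 CPM or more and for zinc finger genes on different chromosomes. The 98 pairs in other clusters have a median of 0.21, as have the other neighbouring genes, while the 15 pairs of the chromosome 4 cluster lie to their right.

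A two-sided permutation test with 100000 resamples was run on 2 sets of pairs with at most 10 genes between. These were the 113 pairs of successive zinc finger genes and the 8717 successive pairs of other genes at 10 CPM or more. The test was adjusted over all 8830 of them. It called 209 pairs (2.37%), of which 5 were among the 113 zinc finger pairs (4.42%), all positive. At an unadjusted p under 0.05 the shares were 23.9% of the zinc finger pairs and 20.7% of all pairs. Adjusted over the 113 alone, a family that was chosen with earlier results known, 6 passed. The count over the 113 was 3 without clone 16 and 3 without clone 19, and between 5 and 8 without any other clone.

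The closest pair was Zfp600 and Zfp992 on chromosome 4, with r = 0.97 and Spearman's rho = 0.84 (permutation p 2e-05 and 0.00223, adjusted p of r over all pairs 0.0118). Leaving out clones 16 and 19, the farthest from the median of Zfp600, gave r = 0.77. Zfp982 and Zfp985 had r = 0.96 and rho = 0.93 (permutation p 1e-05, the smallest these resamples can give, and 0.0001; adjusted 0.0118). Without clones 19 and 22 their r was 0.92. These were also the only 2 called pairs of the cluster whose r stayed over 0.8 after subtracting the neighbourhood, at 0.91 and 0.89.

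Zfp992 and Zfp981 had r = 0.88 and rho = 0.88 (permutation p 0.00078 and 0.00081, adjusted 0.0425), and 0.82 without clones 16 and 19. Zfp991 and Zfp988 had r = 0.86 and rho = 0.77 (permutation p 0.0007 and 0.00747, adjusted 0.0407), and 0.66 without clones 16 and 19. Outside chromosome 4, Zfp41 and Zfp623 on chromosome 15 had r = 0.89 and rho = 0.67 (permutation p 0.00045 and 0.0278, adjusted 0.0361). Without clones 16 and 19 their r was 0.55, and after subtracting the neighbourhood 0.69. Zfp990 and Zfp980 had r = 0.89 and missed the threshold at an adjusted permutation p of 0.0570, as did Zfp979 and Zfp534 with r = 0.94 at 0.0851.

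The lowest r among neighbours was -0.70, for Zfp516 and Zfp407 on chromosome 18 (permutation p 0.0181, adjusted 0.156). Zfp516, a multi-finger factor of brown fat, had 288 CPM in clone 16 and 129 CPM in clone 25. Zfp407 had 41.1 CPM in clone 16 and 60.1 CPM in clone 25, the reverse order. Without clones 25 and 26 the r was -0.21. After subtracting the neighbourhood it was -0.86, which passed the threshold among the 113 pairs (adjusted permutation p 0.0166). Next came Zfp759 and Zfp459 on chromosome 13 (r = -0.36) and Zfp335 and Zfp334 on chromosome 2 (r = -0.35).

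The chromosome 4 cluster runs from Zfp990 to Zfp933 and holds 16 of the genes among 18 Zfp rows: Zfp990, Zfp980, Zfp992, Zfp979, Zfp981, Zfp985, Zfp600, Zfp984, Zfp988, Zfp534, Zfp982, Zfp978, Zfp987, Zfp989, Zfp933 and Zfp991. A KRAB-like core was found in 15 of them. Their summed level was 774 CPM in clone 19, against up to 1772 CPM in clone 23 (mean over all 11 clones 1456 ± 280, SD). In clone 19 each gene stood at 41.0% to 62.3% of its mean in the other clones, median 49.8%. Clone 19 was the lowest clone for 15 of the 16 genes, and for Zfp981 clone 16 was (71.1 CPM, against 80.0 CPM in clone 19).

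Of the 16 genes, 5 fell in clone 19 past the adjusted threshold, and 15 were lower at an unadjusted p under 0.05, against 8.52% of all genes tested. Zfp990 had 141 CPM in clone 19, against 240, 285 and 341 CPM at the lowest, median and highest of the other 10, with a log2 fold change of -1.01 ± 0.17 (SE; edgeR adjusted p = 0.0354). Zfp979 had 89.9 CPM in clone 19, against 145, 169 and 196 CPM, and its log2 fold change was -0.93 ± 0.15 (adjusted p = 0.0342). Zfp534 had 26.8 CPM in clone 19, against 47.1, 55.4 and 60.2 CPM, and its log2 fold change was -1.03 ± 0.15 (adjusted p = 0.0168). In all 3 genes clone 19 lay below every other clone.

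Zfp987 had 22.98 CPM in clone 19, against 40.8, 48.6 and 52.5 CPM at the lowest, median and highest of the others, and its log2 fold change was -1.05 ± 0.16 (adjusted p = 0.0260). Zfp989 had 9.64 CPM in clone 19, against 18.4, 21.9 and 25.2 CPM, and its log2 fold change was -1.17 ± 0.18 (adjusted p = 0.0261). Here too clone 19, with its 1 library, lay below every other clone. All 5 were picked by the test of clone 19 against the others, so this lack of overlap is no separate result. Of the 5, Zfp534 alone stayed called whichever other clone was left out. Zfp990 was not called without clone 18 (0.0659), 20 (0.067), 21 (0.0623), 22 (0.056), 23 (0.0635), 24 (0.0529) or 25 (0.0515). Zfp979 was not called without clone 18 (0.0637), 20 (0.0619), 21 (0.0605), 22 (0.0553), 24 (0.0526) or 25 (0.061). Zfp987 was not called without clone 23 (0.0574), nor Zfp989 without clone 20 (0.0536) or 25 (0.0515).

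The surroundings moved with the cluster. In clone 19 the median gene of the cluster deviated by -0.94 (log2) from its own median over clones, and the 50 nearest non-member genes by -0.83. In clone 16 the 2 values were -0.30 and -0.11. The 120 pairs of genes in the cluster had a median r of 0.83, between 0.37 and 0.98. The median was 0.49 without clone 19, 0.41 after subtracting the neighbourhood and 0.39 with both steps, which were added after the data were seen. Clone 16 was the lowest clone for Zfp981 (71.1 CPM, against a median over clones of 135 CPM) and the second lowest for 8 of the 16 genes, among them Zfp992 (109 CPM, against 175 CPM) and Zfp600 (48.2 CPM, against 74.4 CPM). In clone 16 none of the 16 was called by edgeR, with 1 lower at an unadjusted p under 0.05, nor by DESeq2. Reads can fit several of these genes. Of the 40-base exon windows of a gene in this cluster a median of 68.5% also occur in another gene, and 15 of the 16 genes exceed 10%. For the other zinc finger genes the median was 0.147%, with 22 genes over 10%. No source used here says how such reads were counted, so levels and correlations within the cluster are uncertain for single genes.

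**Figure D4:**
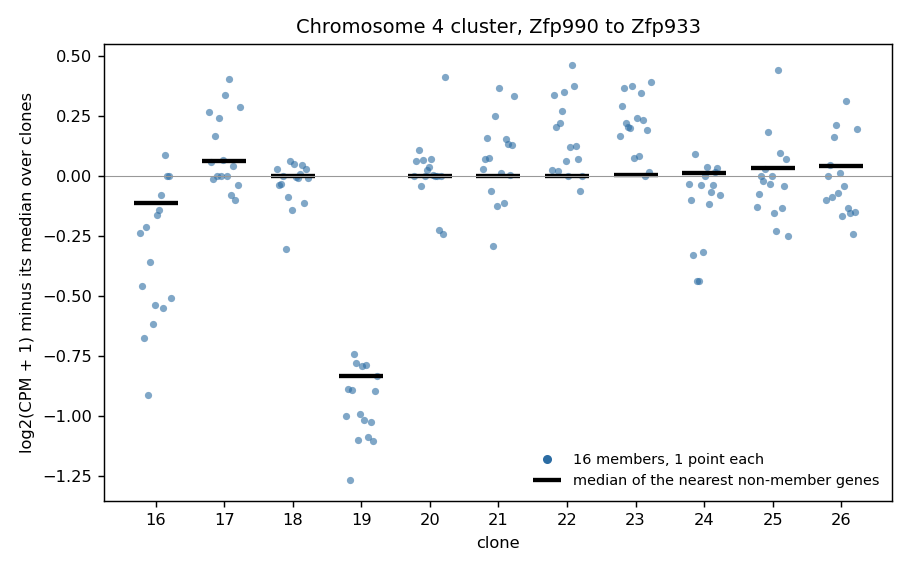
Deviation of log2(CPM + 1) from the gene's median over clones (vertical axis) in each clone (horizontal axis), 1 point per gene of the chromosome 4 cluster, with the median of the nearest non-member genes as a black bar. In clone 19 all 16 genes lie below -0.7 and the bar at -0.83, while in clone 16 many genes lie below the bar at -0.11.

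Other clusters were read in the same way, as the median deviation of their genes in each clone. Of 220 values (20 clusters in 11 clones), 8 reached 0.3 in size, and in 5 of the 8 the neighbourhood had moved the same way by over 0.3. The chromosome 4 cluster in clone 16, at -0.297 beside a neighbourhood at -0.11, fell just short of 0.3 and is not among the 8. The chromosome 15 cluster of Zfp41, Zfp623 and Zfp707 stood at 0.68 in clone 16, with its neighbourhood at 0.40, and at 0.44 in clone 19, with its neighbourhood at 0.53. In clone 17 its neighbourhood deviated by 0.45 and the cluster by 0.16. Zfp41 had 59.6 CPM in clone 16 and 46.5 CPM in clone 19, against 27.7 to 37.9 CPM in the others. Zfp623 had 47.8 CPM in clone 16 and 44.5 CPM in clone 19, against 27.5 to 39.97 CPM in the others. Both chromosome 8 clusters were high in clone 22: Zfp930, Zfp868 and Zfp866 at 0.49 beside a neighbourhood at 0.55, and Zfp709, Zfp617 and Zfp961 at 0.31 beside 0.46.

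In 3 cases the genes moved with little in their surroundings. The chromosome 7 cluster of Zfp787, Zfp444, Zfp667 and Zfp28 stood at 0.52 in clone 26, with its neighbourhood at 0. There Zfp787 had 24.6 CPM (11.0 to 21.7 CPM in the others) and Zfp28 had 19.1 CPM (10.0 to 13.3 CPM in the others). Zfp444 had 36.8 CPM in clone 26 and 36.4 CPM in clone 25, and Zfp667 14.6 CPM in clone 26 and 13.6 CPM in clone 25, so that clone 26 was the highest for both but close to the next clone. The 6 pairs of this cluster had r between 0.43 and 0.69. The chromosome 7 cluster of Zfp607b, Zfp60, Zfp626 and Zfp59 stood at 0.42 in clone 17, beside 0.058, where Zfp60 had 64.4 CPM and the other clones 33.8 to 48.4 CPM. Zfp59 lay between 48.9 and 58.2 CPM in every clone. The chromosome 6 cluster of Zfp398, Zfp282, Zfp212, Zfp777, Zfp746, Zfp956 and Zfp775 stood at -0.31 in clone 26, beside -0.021. None of these genes was called in the clone by edgeR, while DESeq2 called Zfp28 in clone 26 (adjusted p = 0.0191) and Zfp60 in clone 17 (adjusted p = 0.0329).

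**Figure D5:**
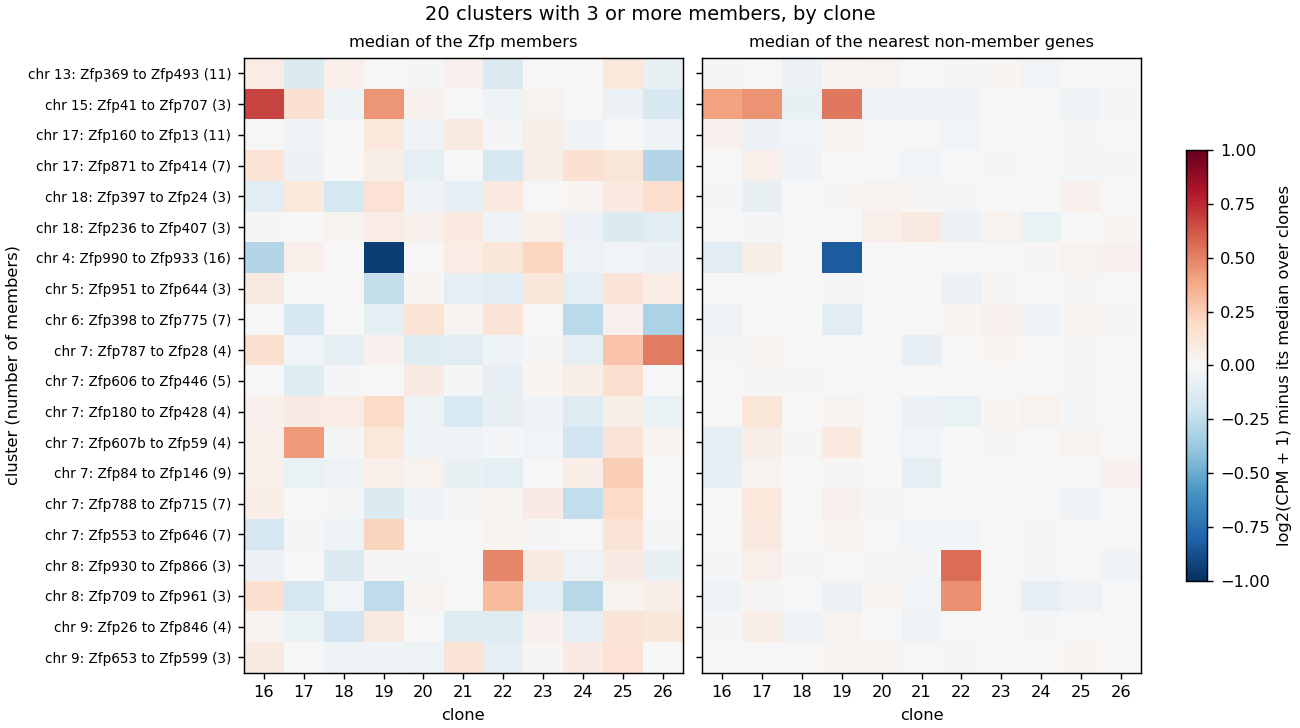
Median deviation of log2(CPM + 1) from each gene's median over clones, for 20 clusters (rows) in 11 clones (columns), with the zinc finger genes on the left and the nearest non-member genes on the right. Chromosome 4 in clone 19, chromosome 15 in clones 16 and 19 and chromosome 8 in clone 22 are shaded in both panels; chromosome 7 from Zfp787 to Zfp28 in clone 26 is shaded on the left only.

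The large clusters of other chromosomes had median r between 0.047 and 0.39. The chromosome 17 cluster of Zfp160, Zfp942, Zfp760, Zfp229, Zfp945, Zfp947, Zfp944, Zfp948, Zfp51, Zfp820 and Zfp13 had a median r of 0.047 over its pairs, and its summed level lay between 347 and 405 CPM. The chromosome 13 cluster of Zfp369, Zfp640, Zfp738, Zfp65, Zfp759, Zfp459, Zfp874b, Zfp729a, Zfp729b, Zfp58 and Zfp493 had a median r of 0.23 and summed to 300 to 387 CPM. The 9 genes around Zfp568 on chromosome 7, which are Zfp84, Zfp27, Zfp74, Zfp568, Zfp940, Zfp420, Zfp790, Zfp260 and Zfp146, had a median r of 0.26. Zfp788, Zfp141, Zfp936, Zfp975, Zfp976, Zfp977 and Zfp715 on the same chromosome had a median r of 0.28, and 0.42 after subtracting the neighbourhood. On chromosome 17, Zfp871, Zfp101, Zfp952, Zfp763, Zfp472, Zfp81 and Zfp414 had a median r of 0.39.

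Of the clusters described above, median r was 0.86 on chromosome 15, 0.63 and 0.41 on chromosome 8, 0.53 and 0.24 on chromosome 7 and 0.33 on chromosome 6. After subtracting the neighbourhood it was 0.27 on chromosome 15 and 0.097 for Zfp930 to Zfp866 on chromosome 8. The remaining clusters of at least 3 genes had median r between -0.52 and 0.16. On chromosome 7 these were Zfp606, Zfp329, Zfp110, Zfp324 and Zfp446 (0.046), Zfp180, Zfp111, Zfp61 and Zfp428 (0.054), and Zfp553, Zfp771, Zfp688, Zfp689, Zfp629, Zfp668 and Zfp646 (0.16). On chromosome 9 they were Zfp26, Zfp266, Zfp426 and Zfp846 (-0.24), and Zfp653, Zfp809 and Zfp599 (-0.12). On chromosome 18 they were Zfp397, Zfp35 and Zfp24 (-0.18), and Zfp236, Zfp516 and Zfp407 (-0.52). On chromosome 5, Zfp951, Zfp326 and Zfp644 had 0.15. In the 16 clusters of 2 genes, r was positive in 11 and lay between -0.35 and 0.74, with the highest for Zfp719 and Zfp819 on chromosome 7.

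Lists of genes by role were examined as well. Over all genes tested 7.47% were variable, so that a count of 0 in lists this short does not set them apart. Zfp598, a ligase that marks collided ribosomes, had 142 to 194 CPM, and Zfp622, a factor of large ribosomal subunit maturation, 83.6 to 99.99 CPM. Zfp593, of the same list, was at 2.13 CPM and so is no member. Of the 3 genes in this list 0 were variable by the edgeR test, and 0 at an unadjusted p under 0.05. Zfp592, Zfp687 and Zfp532, partners of the chromatin reader Zmynd8, had 50.2 to 70.0, 90.2 to 123 and 106 to 206 CPM, and 0 of the 3 were variable (0 unadjusted).

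Among genes tied to the ES cell state, Zfp281, which restrains Nanog, had 168 to 290 CPM, and Zfp462, a heterochromatin-linked protein, 163 to 280 CPM. Zfp217 had 90.6 to 153 CPM, and 0 of 5 genes of this list were variable by edgeR, with 0 at an unadjusted p under 0.05. Of the known silencers of retroelements and imprints, Zfp568, Zfp445 (75.4 to 103 CPM), Zfp809 (28.2 to 42.5 CPM), Zfp819 (15.6 to 36.2 CPM) and Zfp932 (11.3 to 17.2 CPM) are members, and Zfp708 was at 5.54 CPM. Of these 6, 0 were variable by edgeR (0 unadjusted). The 6 RNA-binding proteins, with Zfp106, Zfp207 and Zfp638 (138 to 173 CPM) among them, also had 0 variable (0 unadjusted), as did the ligases Zfp91 (102 to 163 CPM) and Zfp451 (89.5 to 109 CPM).

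Trim28, through which KRAB proteins act, had 1537 to 1975 CPM (1794 ± 136, SD, n = 11). The 14 genes of the co-repressor list, with Cbx5 (841 to 1310 CPM) and Uhrf1 (533 to 901 CPM) among them, had a median SD of 0.160 on the log2(CPM + 1) scale, and 0 were variable by edgeR (0 unadjusted). Of the developmental multi-finger genes, Zfp423 is the only member. Zfp521 (1.10 CPM), Zfp536 (6.59 CPM), Zfp503 (0.567 CPM) and Zfp703 (0.635 CPM) were under the limit, and 1 of the 3 tested was variable.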

How the data were processed

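Per the labels' protocols, RNeasy columns gave the total RNA and TruSeq RNA reagents the libraries. The deposited table holds raw read counts per protein-coding gene, of Ensembl release 66 by its own naming. TopHat 1.4.0 and Bowtie 0.12.7 and the builds mm9 and hg19 are named in the submitters' processing notes, while all IDs are those of mouse genes. How reads were assigned to genes (tool, strand, several matches) is not stated in the sources used here.

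Symbols were matched for 20777 of 22369 IDs. edgeR 4.0.16 (R 4.3.3) was fitted to the counts of genes averaging 1 CPM or more, with TMM factors of 0.971 to 1.04. The variability test used trended dispersions and 10 degrees of freedom, and the common coefficient of variation was 24.8%. Standard errors of fold changes restate the fold change and the F statistic. The variability test sets a gene's spread between the 11 clones against a dispersion trend fitted to the same clones. The quasi-likelihood test sets 1 library against the spread of the other 10. The permutation test bears on the correlation of 2 genes over the clones. With 1 library each, none of these measures a spread within a clone. GENCODE vM21 (GRCm38, not mm9) supplied gene order and exon lengths, joined to the counted genes by Ensembl ID. Clusters, neighbour pairs and neighbourhoods rest on that order, and levels per kilobase on those lengths. Promoters were matched by symbol for 194 of 237 genes. Finger and KRAB patterns were searched in translated reading frames, with the KRAB pattern loosened after a first look. The neighbourhood is the median deviation of the 25 nearest non-member genes on each side averaging 5 CPM or more. Other work was done in Python 3.11.15 with NumPy 2.4.6, SciPy 1.17.1 and pandas 2.3.3, and DESeq2 1.42.0 served for alternatives.

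Named are the highest 10 genes by CPM, those at the limit, variable or called genes, the 5 flattest, genes of clusters of at least 3, the extreme pairs and the leading genes of each list. The highest 10 per kilobase, and single genes quoted for a clone or cluster, were chosen after their values were seen. Members and lists were chosen with earlier results of these data known.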

Additional observations from a re-analysis of the deposited data

How the results depend on the processing

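No paired analysis was possible because the clones form 1 group. The count of variable genes was 5 to 7 under other scalings, filters, level limits and the DESeq2 dispersion trend, and 4 to 9 when 1 clone was left out. The 7 clone calls became 3 with column totals as library sizes and 28 with the DESeq2 Wald test (7 higher, 21 lower), of which 13 were chromosome 4 cluster genes in clone 19. With 1 clone left out there were 2 to 10. The 6 called neighbour pairs, adjusted over the 113, became 3 after subtracting the neighbourhood, of which 2 were among the 6 and the other was the negative pair Zfp516 and Zfp407, and 3 to 8 with 1 clone left out. The causes of these shifts were not tested. No result reversed. The median r of all neighbour pairs moved by less than its jackknife standard error of 0.122 under every alternative tried. With column totals, Zfp704, Zfp979, Zfp987 and Zfp990 lost their calls at adjusted p of 0.0632, 0.063, 0.0551 and 0.0551. Depth limits the low genes most, and with 1 library per clone no spread within a clone was measured.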
